A study of Nothobranchius furzeri with 20 samples.

Results

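Of 18153 brain-expressed genes of the turquoise killifish, 150 are described here, each with a larger share of the reads in 9 of 10 brains of 27 weeks than in any of 10 brains of 9 weeks. The study sequenced RNA from the brain of male Nothobranchius furzeri of the strain MZM-04/10p in 3 groups: 10 libraries of 27 weeks that are all labelled as swum in a swim tunnel, 5 of 9 weeks with the swim tunnel, and 5 of 9 weeks without it. All 27-week libraries carry both the greater age and the exercise, and an unexercised group of that age was not analysed here, so the comparison with exercised 9-week libraries differs, by the labels, in age and the other in age and exercise. Whether each library is a separate fish is not stated, nor are the duration of the exercise, a tank or a batch. Every p-value thus measures only the spread between these libraries, which may be technical.

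The members were chosen on the values themselves. CPM is the count of a gene divided by the total of its library and scaled to 1000000, and levels are log2(CPM + 0.5) unless CPM is named. For every gene averaging 1 CPM or more across 20 libraries, the score of a gene was its lowest level among 27-week libraries, with replicate 8 left out, minus its highest level among the 10 libraries of 9 weeks. The 150 genes with the highest score out of 26739 in the table are the members. Because age chose them, every difference between 27 and 9 weeks in these genes, and every count of members called in that contrast, is a description and no independent test. Replicate 8, exercise at 9 weeks and gene length did not enter the score as such, although a gene raised in either 9-week group scored lower.

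Turquoise killifish live in seasonal ponds and have one of the shortest lifespans of any vertebrate kept in the laboratory, which makes them a model of ageing. Ageing vertebrate brains, killifish included, are known for activated glia, inflammatory and lysosomal gene expression and reduced formation of new neurons. Whether members belong to such groups cannot be told from these files, because genes are listed by identifier alone. Searched against RefSeq names for the assembly NfurGRZ-RIMD1, 0 of 26739 identifiers matched, so no role, sequence or position is given to any gene. Markers of brain cells, blood or other tissue were therefore not examined, and in such tissue more cells of a type cannot be told apart from more RNA per cell.

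Libraries held 15048627 to 34843199 counts. Replicate 8 of the 27-week group stood apart: its TMM factor, edgeR's scaling for libraries dominated by some genes, was 0.736 against 0.984 to 1.05 in the other 19 libraries, and its mean level over all 18153 genes was 4.02 against 4.25 to 4.36. Its values are given beside the results they touch.

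The separation between ages was narrow for most members. The score was 0.47 at rank 1, 0.18 at rank 10, 0.06 at rank 50 and 0.02 at rank 100, with a median of 0.04 on the log2 scale. The last 2 members scored 0.0022 and 0.0016, and the next 2 genes, just outside the list, scored 0.0014 and 0.00052. In all, 152 genes, 0.837% of those scored, scored above 0, so that the 2 ages did not overlap in them once replicate 8 was left out. With replicate 8 entered, 57 genes scored above 0. The counting error of the score, taken from the read counts of the 2 libraries that set it, had a median of 0.08, and the score reached its own counting error in 29 of the 150 members. In 8 members it was more than 2 times that error. Set the other way, with the lowest 9-week level above the highest 27-week level, 40 genes lay above 0, or 0.220%, and the 150 genes with the highest score that way form the mirrored list used for comparison, although 110 of them overlapped between ages.

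The differences themselves were small and shared by many genes. The mean of the 9 libraries of 27 weeks exceeded the mean of the 10 of 9 weeks by a median of 0.35 on the log2 scale, or 1.27-fold, with a quartile range of 0.26 to 0.49 and extremes of 0.13 and 1.99. The same difference had a median of 0.02 over all 18153 genes. It was below 0.5 in 113 members and reached 1, a doubling, in 7. The doublings were found among genes with low 9-week levels, between 0.251 and 9.33 CPM. Some of these averaged below 1 CPM at 9 weeks and reached the minimum level only through 27-week values. Among the 22 members under 5 CPM at 9 weeks the median difference was 0.77, and it was 0.46 among 34 members of 5 to 20 CPM, 0.32 among 76 of 20 to 100 CPM and 0.22 among 18 of at least 100 CPM. Over all genes the same classes had medians of 0.08, 0.03, 0.01 and -0.02. Counting error is larger at low levels, and a gene with a wider spread could become a member only with a larger difference. The order of the classes among members is thus bound up with the rule, and nothing is read from it.

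In edgeR's quasi-likelihood test with replicate 8 included, all but 1 member had enough counts to be tested against the exercised 9-week libraries. Of these, 66 had a Benjamini-Hochberg adjusted p below 0.05 over all genes and a higher value at 27 weeks, where 1.16% of all 19531 genes tested did so. Against the unexercised 9-week libraries 92 did so, where 2.57% of 19591 genes did. Nothing is read from these shares, since the rule used the same libraries, and both comparisons share the 10 libraries of 27 weeks. DESeq2, another count model, called 131 and 130 members, where 4.14% and 5.99% of all genes were higher.

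The number of members that passed in edgeR changed when single libraries were left out, and fell without any of the 9-week libraries compared. The median log2 fold change of the members changed little. It ran from 0.31 to 0.35 against exercised and from 0.33 to 0.36 against unexercised 9-week libraries. Against exercised 9-week libraries, 113 passed without 27-week replicate 8, where 2.57% of all genes were called higher. The count was 14, 11, 25, 0 and 24 without exercised 9-week replicates 1 to 5 in turn, and 34 and 33 without 27-week replicates 2 and 5. In the same fits 50, 24, 67, 0 and 100, and then 100 and 94, of all genes were called higher, out of 19425 to 19682 tested. Against unexercised libraries, 88.6% of the members tested passed without replicate 8, where 4.62% of all genes were called higher. There the count was 23, 41, 45, 30 and 32 without unexercised replicates 1 to 5 in turn, and 54 without 27-week replicate 5. In the same fits 76 to 175 of all genes were called higher without single unexercised replicates, and 195 without 27-week replicate 5, out of 19535 to 19713 tested.

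The mean level of the 150 members showed where each library stood. In 27-week libraries 1 to 10 it was 5.08, 5.05, 5.02, 5.20, 5.10, 4.89, 4.91, 5.02, 4.92 and 4.94 in order of replicate. In exercised 9-week libraries 1 to 5 it was 4.62, 4.59, 4.63, 4.43 and 4.6, and in unexercised ones 4.50, 4.6, 4.59, 4.55 and 4.55. In this mean the 27-week libraries all lay above the 9-week libraries, while the 9-week groups lay over each other. For replicate 8 the mean covers a split, with 57 members above the highest 9-week library and 61 below the lowest. Members took 0.820 ± 0.0506% of all counts at 27 weeks without replicate 8 (SD, n = 9), 0.664 ± 0.0351% in exercised 9-week libraries (n = 5) and 0.656 ± 0.0149% in unexercised ones (n = 5). Replicate 8 held 1.4% of its counts in these genes, and 7 members alone held 0.744% of its counts.

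**Figure D1:**
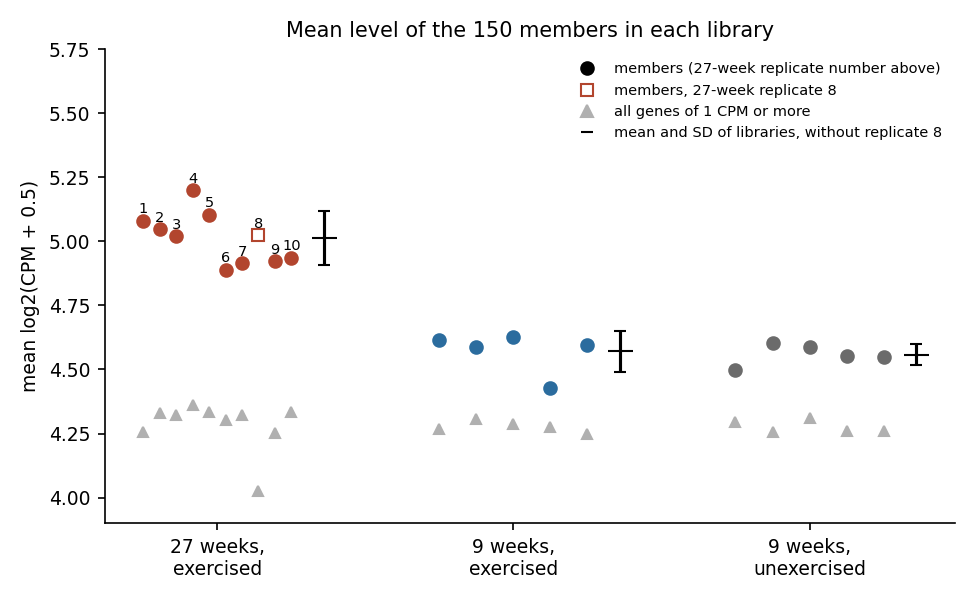
Mean log2(CPM + 0.5) of the 150 members in each library, by group, with the 27-week replicate number above its point and black marks for the mean and SD of each group without replicate 8. The 27-week libraries lie between 4.89 and 5.20, above the 4.43 to 4.63 of the 9-week libraries, while the mean over all genes, in grey triangles, is 4.25 to 4.36 in every library but replicate 8.

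Nfu_g_1_012105 had the highest score. It measured 37.2, 42.7, 34.5, 25.8, 30.3, 23.2, 26.6, 702, 25 and 43.5 CPM in 27-week replicates 1 to 10. In 9-week libraries it measured 7.15, 8.29, 6.25, 5.98 and 5.13 CPM with exercise and 8.98, 16.6, 8.40, 10.2 and 16.3 CPM without. No 27-week value overlapped a 9-week value, and replicate 8, with 20049 counts, stood far above the next highest library. Without replicate 8 the level at 27 weeks was 32.1 ± 7.72 CPM (SD, n = 9), against 6.56 ± 1.21 CPM in exercised (n = 5) and 12.1 ± 4.02 CPM in unexercised 9-week libraries (n = 5), a difference of 1.79 from the mean of both on the log2 scale. Nfu_g_1_012105 had an implied length of 2698 bp.

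The second highest score belonged to Nfu_g_1_006331, a low-level gene of 768 bp. It measured 3.17, 4.85, 4.52, 1.52, 3.36, 1.56, 2.99, 6.27, 2.36 and 2.87 CPM in 27-week replicates 1 to 10. In 9-week libraries it measured 0.758, 0.689, 0.797, 0.389 and 0.228 CPM with exercise and 0.494, 1.01, 0.368, 0.336 and 0.912 CPM without. These rest on 35 to 179 counts per library at 27 weeks and 4 to 27 counts at 9 weeks, and the groups did not overlap. Replicates 4 and 6 were the lowest of the 27-week group. Without replicate 8 the mean was 3.02 ± 1.15 CPM at 27 weeks (SD, n = 9), against 0.572 ± 0.250 CPM in exercised (n = 5) and 0.624 ± 0.316 CPM in unexercised 9-week libraries (n = 5), a log2 difference of 1.65 that understates the change because of the added 0.5.

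**Figure D2:**
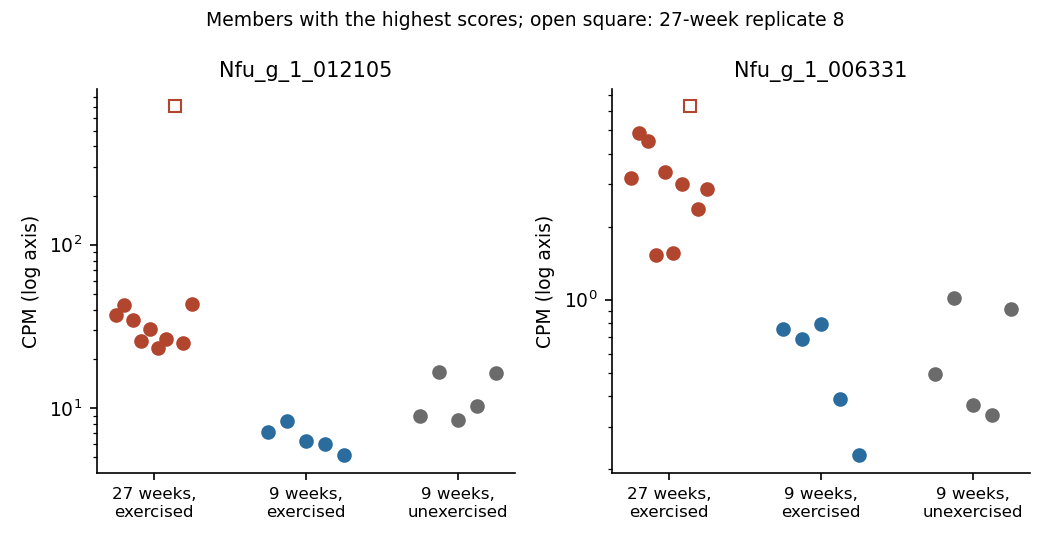
CPM of the 2 members with the highest scores in every library, on log axes, with 27-week libraries on the left, then exercised and unexercised 9-week libraries; the open square is 27-week replicate 8. For Nfu_g_1_012105 the lowest 27-week value is 23.2 CPM and the highest 9-week value 16.6 CPM, and for Nfu_g_1_006331 they are 1.52 and 1.01 CPM.

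No member passed the test of exercise at 9 weeks in edgeR. Of 147 members tested, 0 reached an adjusted p of 0.05 in edgeR, where 0.0994% of 19123 genes did, and 4 had an unadjusted p below 0.05, where 12.1% of all genes did. DESeq2 called 1 member, Nfu_g_1_012105, where it called 1.54% of 22883 genes. The level in exercised libraries minus that in unexercised ones had a median of 0.01 over the members, with a quartile range of -0.03 to 0.06, beside a median of 0.02 over all genes. Exercised libraries were higher in 87 of 150 members, or 58.0%, as in 55.3% of all genes. The exercised libraries lay wholly above the unexercised ones in 0 members and wholly below in 2, where 2.08% and 0.936% of all genes did so. The rule subtracted the highest of all 10 libraries of 9 weeks, so a gene raised in either 9-week group scored lower. The test reused those libraries, and nothing is read from how few members differed with exercise. The members also varied little at 9 weeks, a property that the rule selects for. The median SD of a member was 0.10 in exercised and 0.08 in unexercised libraries, against 0.15 and 0.14 over all genes.

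Among the 150 members, the largest difference between the 9-week groups was that of Nfu_g_1_012105, at -0.79, where all genes ran from -2.10 to 5.03. It was lower in each of the 5 exercised libraries than in any of the 5 unexercised ones, with a log2 fold change of -0.90 (SE 0.22). It did not pass in edgeR (adjusted p = 0.182, unadjusted p = 0.0020), while DESeq2 gave an adjusted p of 0.0139. Nfu_g_1_006331 differed by -0.13 (SE 0.41, edgeR adjusted p = 0.955).

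The 27-week libraries divided by the order in which they are listed. The titles of replicates 1 to 5 carry consecutive numbers, and those of replicates 6 to 10 follow after a gap. Within the second run, 1 number is skipped between replicates 8 and 9. The labels attach no meaning to these numbers and give both runs the same age and treatment. The 9-week titles have a like gap between the exercised and the unexercised group, and another of the same size within the unexercised group. Whether both 27-week runs were exercised as labelled was not tested. A run that was not would change what the comparison with exercised 9-week libraries holds. The members averaged 5.09 ± 0.07 in replicates 1 to 5 (SD, n = 5) and 4.92 ± 0.02 in replicates 6, 7, 9 and 10 (n = 4), and these ranges did not overlap. Replicate 8, at 5.02, lay within the range of the first run in this mean, although 61 of the members were below the lowest 9-week library in it.

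Gene by gene, all but 18 members, or 88.0%, had a higher mean in replicates 1 to 5 than in replicates 6, 7, 9 and 10, where 53.9% of all genes did. All of replicates 1 to 5 lay above all of replicates 6, 7, 9 and 10 in 49 members, and below them in 0. Over all genes that held for 8.95% and 6.34%. Taken separately, the first run exceeded the 9-week mean by a median of 0.43 and the second, without replicate 8, by 0.25, while over all genes these medians were 0.03 and 0.01. The lowest of the 9 libraries of 27 weeks, the one that set the score, was one of replicates 6, 7, 9 and 10 in 122 members, or 81.3%, against 46.6% of all genes. The highest was replicate 4 in 70 members, or 46.7%, against 17.1% of all genes. In the mirrored list the runs stood the other way: 27 of 150 genes were higher in replicates 1 to 5, and the first run lay 0.29 and the second 0.20 below the 9-week mean, as medians. In both lists the first run was thus the farther from 9 weeks. These 9 libraries also chose both lists, so the values describe the lists and test nothing. Over all genes, 1258 scored above 0 with replicates 1 to 5 alone and 405 with replicates 6, 7, 9 and 10 alone. The difference between runs is thus not shown to be particular to the lists. Whether the runs differ in tank, preparation or any other respect was not tested.

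**Figure D3:**
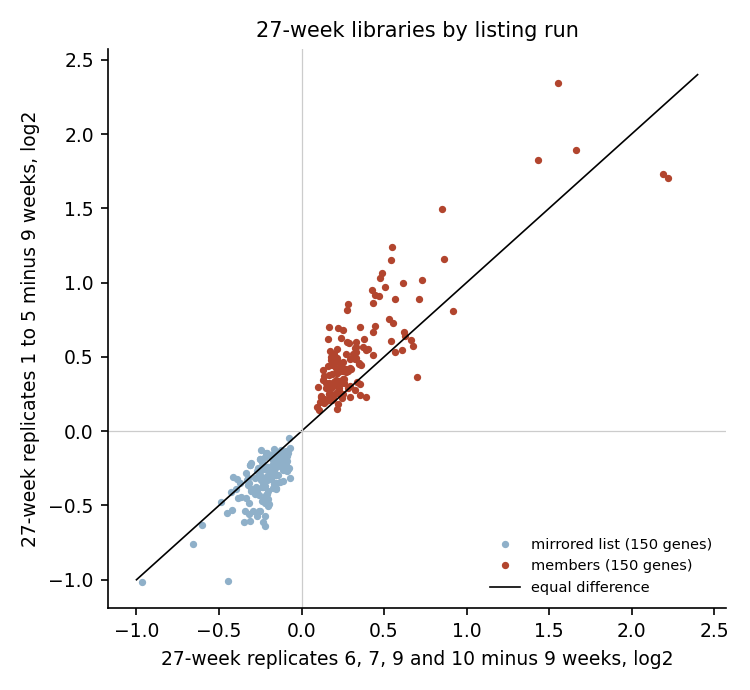
Difference from the 9-week mean, on the log2 scale, of 27-week replicates 1 to 5 (vertical) and of replicates 6, 7, 9 and 10 (horizontal), with 1 point per gene, members in red, the mirrored list in blue and a line of equal difference. All but 18 members lie above the line, and 27 of the mirrored list do.

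At 9 weeks, too, single libraries stood at the ends of many members. Exercised replicate 4 was the lowest of the 10 libraries in 80 members, or 53.3%, against 12.6% of all genes and 4.67% of the mirrored list. Exercised replicates 1 and 3 were the highest in 40 and 35 members. They held 18462248 and 15048627 counts, the latter the fewest of any library. Their shares over all genes were not computed, so nothing is read from these counts of members. The highest 9-week value, which set the score, came from an exercised library in 105 members, or 70.0%, against 58.1% of all genes.

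Members correlated with each other within groups. Over pairs of members, the mean correlation of levels was 0.35 among the 9 libraries of 27 weeks and 0.34 among the 10 of 9 weeks, as deviations from the group mean. Over all pairs of the 18153 genes it was 0.0069 and 0.012, and in the mirrored list 0.24 and 0.10. Both lists were chosen by direction and all genes were not, so the value over all genes is no baseline for either list. It was 0.47 among exercised and 0.17 among unexercised 9-week libraries, each with n = 5. Exercised replicate 4, the lowest 9-week library in 80 members, entered the 0.47 and the 0.34, and values without it were not computed. As deviations from the mean of each listing run, the 27-week value was 0.17, and 0.12 in the mirrored list. These correlations describe libraries that the rule used, and the points share the library total: with TMM-scaled library sizes they were 0.29 at 27 weeks and 0.22 at 9 weeks. The mirrored list then had 0.30 and 0.19, so members did not exceed it at 27 weeks under that scaling. With the trend of each library along gene length removed, and raw totals, members had 0.36 and 0.30 and the mirrored list 0.24 and 0.07.

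**Figure D4:**
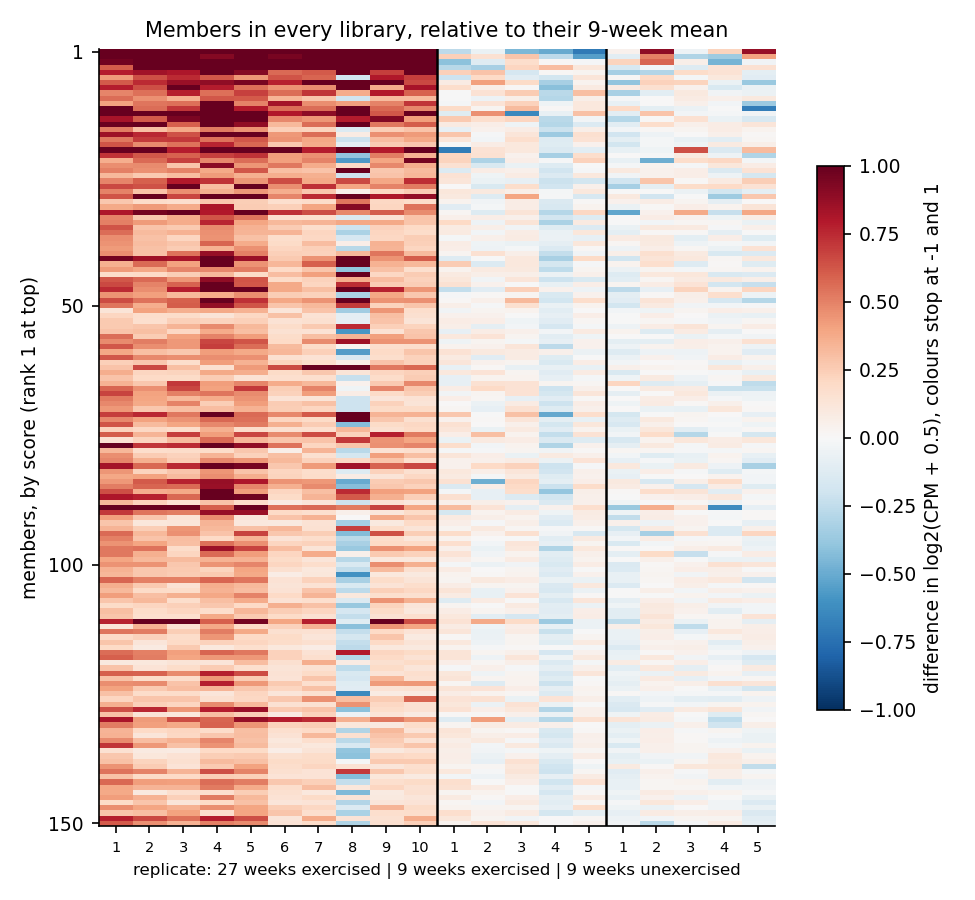
Level of each member in each library minus its 9-week mean, in log2 units with colours that stop at -1 and 1, in order of score from rank 1 at the top, with 27-week libraries on the left, then exercised and unexercised 9-week libraries. Replicates 1 to 5 of 27 weeks are darker than replicates 6, 7, 9 and 10 in most members, replicate 8 holds both dark red and blue values, and exercised 9-week replicate 4 is blue in most members.

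Replicate 8 of 27 weeks was the one library of that age that had no part in the score, although it entered the mean of 1 CPM that a gene had to reach. With raw totals it exceeded the highest 9-week library in 57 of 150 members, or 38.0%, where 13.5% of all genes did, and in 3 of the mirrored list. It lay below the lowest 9-week library in 61 members, or 40.7%, where 62.3% of all genes did, and in 145 of the mirrored list. The median difference from the 9-week mean was -0.05 over the members, -0.44 over all genes and -0.91 over the mirrored list. So the description "higher in every 27-week brain" did not extend to this library on raw totals.

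The scaling of replicate 8 decided that count. With TMM-scaled library sizes, which bring the median of all genes to -0.02, it exceeded the highest 9-week library in 127 members, or 84.7%, where 30.8% of all genes did. It then lay below the lowest in 4 members, where 31.5% of all genes did. In the mirrored list 4.67% of genes were above and 90.7% below. The median difference from the 9-week mean was 0.40 over the members and -0.46 over the mirrored list. Relative to the median of all genes, the median of the members was 0.40 with raw totals and 0.41 with TMM, and that of the mirrored list was -0.46 and -0.45. Each pair had to be close, because scaling a library moves nearly all its genes by the same amount on the log2 scale. Nothing is read from their closeness.

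**Figure D5:**
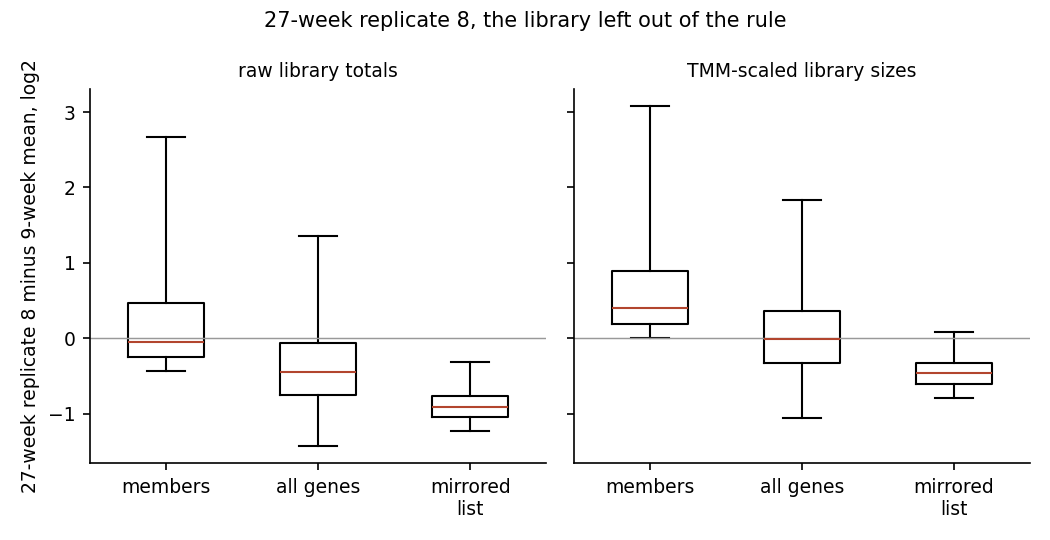
Difference of 27-week replicate 8 from the 9-week mean, in log2 units, over the members, all genes and the mirrored list, with raw totals on the left and TMM-scaled sizes on the right; boxes span the quartiles, red lines mark medians and whiskers run between percentiles 5 and 95. Medians are -0.05, -0.44 and -0.91 with raw totals and 0.40, -0.02 and -0.46 with TMM.

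A few members were extreme in replicate 8, in a share not far from that of all genes. In 7, or 4.67%, it was at least 4-fold above the median of the other 27-week libraries, by 3.00 to 10.05 on the log2 scale, where 3.18% of all genes were at least 4-fold above. Of these 7, 5 are among the 7 members that doubled with age in the other libraries. The same overlap was not counted over all genes, so no link is read from it. Of the 7 members that doubled, 1 reached the minimum of 1 CPM only through replicate 8, so that it had to be high there, and the others also exceeded the highest 9-week library in it. Replicate 8 was the highest of all 27-week libraries in 25 members, and replicate 4 was next in 15 of them, or 60.0%, against 18.1% of the 1846 genes that were highest in replicate 8. With replicate 8 left out, replicate 4 was the highest in 46.7% of all members, so no link between the 2 libraries is read from the 15. In 2 members the mean over the other 19 libraries was below 1 CPM, so that they passed the minimum through replicate 8. Both are among the 57 members above, and 1 of them is among the 7 that were at least 4-fold above. A further limit is that 6 members, those 2 among them, had a 9-week mean below 1 CPM and passed through their 27-week values, replicate 8 included. In 1 of the 6 the 27-week mean without replicate 8 was below 1 CPM too.

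Members were, in the median, shorter and more highly expressed than all genes. Their level is bound up with the rule, which favours genes with little counting error and spread, and nothing is read from it. The median gene length implied by the deposited values was 2184 bp, with quartiles of 958 and 3126 bp, against 2765 bp over all genes and 4910 bp in the mirrored list. Genes of at least 6000 bp made up 4 of 150 members, or 2.67%, against 15.8% of all genes and 38.0% of the mirrored list. Genes under 1500 bp made up 54 members, or 36%, against 27.4% of all genes and 16.0% of the mirrored list. Among members, the difference between 27 and 9 weeks had medians of 0.33 under 1500 bp, 0.34 from 1500 to under 3000 bp and 0.41 from 3000 to under 6000 bp. Over all genes those medians were 0.04, 0.04 and 0.02, and -0.03 at 6000 bp and above.

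The median member stood at 34.4 CPM over all libraries, with quartiles of 15.9 and 66.4 and extremes of 1.05 and 361, against a median of 20.5 CPM over all genes and 73.8 in the mirrored list. Per kilobase of length, the median was 19 CPM over members, 8.38 over all genes and 15.2 in the mirrored list. The least of the 27-week values, without replicate 8, rested on a median of 692 counts, and 1 member had fewer than 10 counts in one of those libraries. Whole libraries differed in their trend along gene length, replicate 8 most of all. The slope of a library's deviation from the gene mean on log2 length averaged -0.0073 ± 0.0092 log2 units per doubling at 27 weeks without replicate 8 (SD, n = 9), against 0.011 ± 0.012 in exercised (n = 5) and 0.0022 ± 0.010 in unexercised 9-week libraries (n = 5). It was -0.0918 in replicate 8. In the other libraries it ran from -0.0257 in 27-week replicate 9 to 0.0235 in exercised 9-week replicate 4. With each library's trend along length removed, 127 of the 150 members were still chosen.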

How the data were processed

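The authors deposited raw read counts and RPKM values for each gene in 20 libraries, and sample titles identify the columns. Total RNA was made into libraries with Illumina's TruSeq kit, per the labels' protocols. Tools listed in the submitters' processing notes are featureCounts (1.4.6-p4), STAR (2.4.1d) and bcl2fastq (1.8.4). The sources used here do not give build, annotation or strand setting, so reads of near-identical, overlapping or antisense genes cannot be told apart. The deposited RPKM values had been divided by library totals taken in turn down the table. With this undone, the gene length they imply varied by 5.6e-05 between libraries (log2 SD over 10327 genes), against 0.42 with each library's own total, and served as length; RPKM is not reported as a level. No replicate pair agreed within sampling noise (lowest chi-square per degree of freedom 7.86).

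The members, lists and alternatives were chosen with earlier results of these data known. Named genes are the 2 with the highest score and any member passing for exercise, of which there was none in edgeR. Tests used edgeR 4.0.16 in R 4.3.3 (filterByExpr, TMM, glmQLFTest, two-sided) on the 2 groups compared, adjusted over all genes, with DESeq2 1.42.0 as an alternative, and were tested on simulated counts. Alternatives covered library scaling, pseudocount, minimum level, single libraries and listing runs. Length trends were running medians over 2001 genes. Lists were described with Python 3.11.15.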

Additional observations from a re-analysis of the deposited data

Results flagged for a closer look

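In 12 sets of values, each 1 measure in 1 group, the end library was set against its group by the gap to its nearest neighbour relative to the range. In 4 sets it stood apart, where chance gives about 1 in 20. Exercised 9-week replicate 4 was far below its group in the mean level of the members, at 4.43, and in their share of counts, at 0.603%. Replicate 8 of 27 weeks was far above its group in the share of counts, at 1.4%, and in Nfu_g_1_012105, at 702 CPM. These measures overlap, and the 4 values belong to 2 libraries.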

How the results depend on the processing

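Of the 150 members, 108 to 148 were kept when 1 of the 19 libraries was left out, 128 with TMM-scaled library sizes, 127 with the length trend removed and all 150 with either other pseudocount or no minimum. With replicate 8 entered 65 were kept, with 27-week replicates 1 to 5 alone 37 and with replicates 6, 7, 9 and 10 alone 53. Leaving out 27-week libraries cannot lower a score, so every member still scored above 0 in either run alone. There 1258 and 405 genes scored above 0, against 152 under the rule, so the members that left were outranked. Without single libraries 153 to 219 genes did so. The mean difference of the members between ages was 0.45 on the log2 scale, 0.42 to 0.46 without single libraries, and 0.41 with TMM.

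For exercise, 0% of the members tested passed in edgeR, 0% without any single library, and 0.667% in DESeq2. Over all genes 19 passed, 0 to 15 without single libraries, 353 in DESeq2 and 1 with all 20 libraries in 1 fit. The log2 fold change of Nfu_g_1_006331 was -0.29 to 0.12 without single libraries, reversed to 0.06, 0.12 and 0.05 without exercised replicate 5 and unexercised replicates 2 and 5.

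For age among exercised libraries, 44.3% of members tested passed, 0% to 75.8% without single libraries, 87.3% in DESeq2 and 80.5% with all 20 libraries. The share was 98.0% with 27-week replicates 1 to 5 alone and 4.03% with replicates 6 to 10 alone. Of all genes tested in these 2 fits, 1784 of 19060 and 61 of 19248 were called higher. Every fit of the second run given here included replicate 8, and none left it out. The values of the runs therefore do not compare them apart from that library. Over all genes, in either direction, 421 passed, 7 to 915 without single libraries and 1688 in DESeq2. With all 20 libraries 1207 did, and in the runs 3132 and 114. Against unexercised libraries, 61.7% of members passed, 15.4% to 88.6% without single libraries, and 93.3% and 11.4% in the runs. Of all genes tested in the runs, 2475 of 19240 and 140 of 19389 were called higher. Over all genes, in either direction, 853 passed, 147 to 1547 without single libraries and 2323 in DESeq2. With all 20 libraries 1793 did, and in the runs 4425 and 201. Replicate 8 exceeded all 9-week libraries in 38% of members, 38% to 40% without single 9-week libraries, 84.7% with TMM and 78.7% with TMM and the length trend removed. Counting only members with a mean of 5 CPM or more, still as a share of all 150, it was 28%. The causes were not tested. The length trend, the correlations and the level with replicate 8 were added after the data were seen. No paired analysis was possible because each title's number belongs to 1 sample and no label pairs samples between groups. The replicate numbers recur in each group but only count its libraries.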
